A study of Homo sapiens with 3 samples.

Results

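FOXO transcription factors and genes known as their targets were followed on 3 Affymetrix arrays of MM1S, an established cell line of human multiple myeloma. The 10 genes were FOXO1, FOXO3, FOXO4, FBXO32, BCL6, ARRDC3, CITED2, TXNIP, PIK3IP1 and IRS2. Every probe set that the platform annotation assigned to exactly 1 of these symbols was taken, which gave 30 of the 41091 probe sets with 1 symbol, and 10 of 19775 genes. A probe set is a group of short probes read as 1 value, so a gene can have several. The genes were chosen by their log2 differences between these same arrays, known from earlier results, so the differences below are a description and were not tested. The groups were an untreated culture (0 h), a culture with 10 nM FK866 for 6 h and another with it for 24 h, 1 array each, all in RPMI-1640 with serum, antibiotics and glutamine. FK866 blocks NAMPT, the enzyme that recycles nicotinamide to NAD. MM1S is 1 line, and 0 untreated arrays at 6 h or 24 h were analysed here, so FK866 and time in culture cannot be told apart. With 1 array per group, no difference has a replicate check or a p-value.

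FOXO proteins are forkhead transcription factors that bind DNA in the nucleus and turn on genes of growth arrest, cell death, autophagy and metabolism. Growth factors acting through PI3K and AKT lead to their phosphorylation and export from the nucleus, so much of their control takes place on the protein and not on the transcript. In lymphocytes they drive genes of homing, receptor signalling and quiescence, and NAD-dependent sirtuins can remove acetyl groups from them. An array reads transcript levels only, so neither the location nor the modification of a FOXO protein was measured.

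The promoters of the genes were read for letters that FOXO proteins are known to bind, to show the sequence context of members that differ in their response. RefSeq gave windows from 250 bases before to 50 bases after an annotated start for 9 of the 10 genes, 18 windows in all, on GRCh38.p14. The gene without a window was FBXO32, so its promoter was not searched for any motif. The string GTAAACA, searched on both strands, stood in a window of 4 of these 9 genes and in 4 of the 18 windows. It stood in 3.42% of all 35116 windows and in at least 1 window of 4.19% of 27305 genes. Capitals mark the string, which reads TGTTTAC where it lies on the opposite strand, and each window runs 5′ to 3′ along its gene.
ARRDC3, chr5:91380048-91380347, minus strand: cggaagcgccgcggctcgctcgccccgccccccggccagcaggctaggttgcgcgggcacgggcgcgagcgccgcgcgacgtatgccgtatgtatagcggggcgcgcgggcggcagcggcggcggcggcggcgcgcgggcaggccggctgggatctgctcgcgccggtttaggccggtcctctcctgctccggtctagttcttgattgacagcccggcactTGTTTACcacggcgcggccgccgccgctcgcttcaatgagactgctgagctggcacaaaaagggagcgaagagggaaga
TXNIP, chr1:145996530-145996829, minus strand: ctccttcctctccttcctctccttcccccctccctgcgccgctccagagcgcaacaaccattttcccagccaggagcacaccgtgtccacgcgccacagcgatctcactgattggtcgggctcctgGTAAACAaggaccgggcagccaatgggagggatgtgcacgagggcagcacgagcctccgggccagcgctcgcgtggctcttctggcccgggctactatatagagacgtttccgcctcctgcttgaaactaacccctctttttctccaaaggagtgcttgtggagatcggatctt
PIK3IP1, chr22:31292439-31292738, minus strand: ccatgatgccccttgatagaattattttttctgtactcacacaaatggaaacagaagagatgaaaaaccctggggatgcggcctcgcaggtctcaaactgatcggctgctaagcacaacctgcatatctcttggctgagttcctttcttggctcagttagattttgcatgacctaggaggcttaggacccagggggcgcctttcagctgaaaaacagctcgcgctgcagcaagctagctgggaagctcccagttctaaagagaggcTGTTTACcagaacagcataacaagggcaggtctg
FOXO4, chrX:71095601-71095900, plus strand: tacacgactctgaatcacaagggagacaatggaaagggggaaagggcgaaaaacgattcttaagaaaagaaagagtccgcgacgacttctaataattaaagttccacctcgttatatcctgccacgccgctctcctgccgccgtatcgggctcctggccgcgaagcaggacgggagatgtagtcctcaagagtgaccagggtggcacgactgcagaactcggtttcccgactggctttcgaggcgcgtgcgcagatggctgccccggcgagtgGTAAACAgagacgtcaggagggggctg
The string began 29 bases before the start in ARRDC3, 124 bases before it in TXNIP, 16 bases after it in PIK3IP1 and 23 bases after it in FOXO4. The other motifs searched, on both strands, were CAAAACAA, an insulin response type of FOXO site, CACGTG, the E-box that factors such as MondoA recognise, and TGACGTCA, the CREB site. They stood in 1.68%, 7.26% and 1.85% of all windows. Among the members with windows, CAAAACAA stood only in the IRS2 window, CACGTG only in a CITED2 window and TGACGTCA in 0 of 18. CAAAACAA and GTAAACA share letters, but each member window with a match held only 1 of the 4 motifs. A match describes letters and shows no binding.

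The arrays carried plasma cell transcripts and differed a little in overall level. Signals are in arbitrary units on a linear scale. The median signal was 20.4 without FK866, 17.4 at 6 h and 17.2 at 24 h, and over 11883 genes the median log2 difference was -0.10 at 6 h and -0.13 at 24 h against untreated cells. All 12 plasma cell markers checked, such as SDC1, TNFRSF17 and IRF4, were measured. They had summed signals of 55693, 52956 and 53775 in the order untreated, 6 h, 24 h. Single markers differed from untreated cells at 24 h by -0.79 (XBP1, the lowest) to 0.93 (IRF4, the highest). Of 18 myeloid, T cell and NK cell markers on the array, 5 passed the filter on low signal and 10, among them CD14, LYZ and CD3D, lay under 16 in every probe set and array. Their summed signals were 247.8, 238.8 and 202.8. Of 13 stroma markers, 6 passed, COL3A1 and PDGFRB lay under 16 throughout, and the sums of 9477, 7919 and 6551 were mostly VIM. RNA quality was read from the 3′ minus 5′ log2 difference of control probe sets, with GAPDH at 0.24, 0.20 and 0.32 and ACTB at 2.25, 2.55 and 2.33.

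Signals below 16 were set to 16, because dim values have no order, and log2 values were taken. The filter kept probe sets whose mean log2 over the 3 arrays reached the median of all probe sets, a signal of 19.1. Of the 30 member probe sets 24 were kept, and 9 of the 10 genes had at least 1. Each gene takes its value from the kept probe set of highest mean, and a difference is called at 2-fold, a log2 difference of 1 in size. The only error measure here is how far probe sets of 1 gene differ from each other. Its pooled SD was 0.38 on the log2 scale for each comparison with untreated cells, over 5967 genes, and it covers probe error and isoforms but no variation between cultures.

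At 24 h, 4 of the 9 measured genes were at least 2-fold lower than in untreated cells, namely FBXO32, BCL6, ARRDC3 and CITED2, and 0 were at least 2-fold higher. BCL6 was near the floor and passed the filter only through the untreated array, and the count is 3 with a floor of 64 or with log2(signal + 32). Among all genes the shares at 24 h were 4.17% lower and 1.14% higher by that size. At 6 h, BCL6 and ARRDC3 were at least 2-fold lower, 2 of 9, and 0 were higher, against 3.32% and 1.44% of all genes. The median log2 difference of the 9 was -0.07 at 6 h and -0.29 at 24 h. Nothing is read from these shares, since the genes were chosen with such values known. On bulk RNA, fewer cells with a transcript and less of it per cell cannot be told apart.

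**Figure D1:**
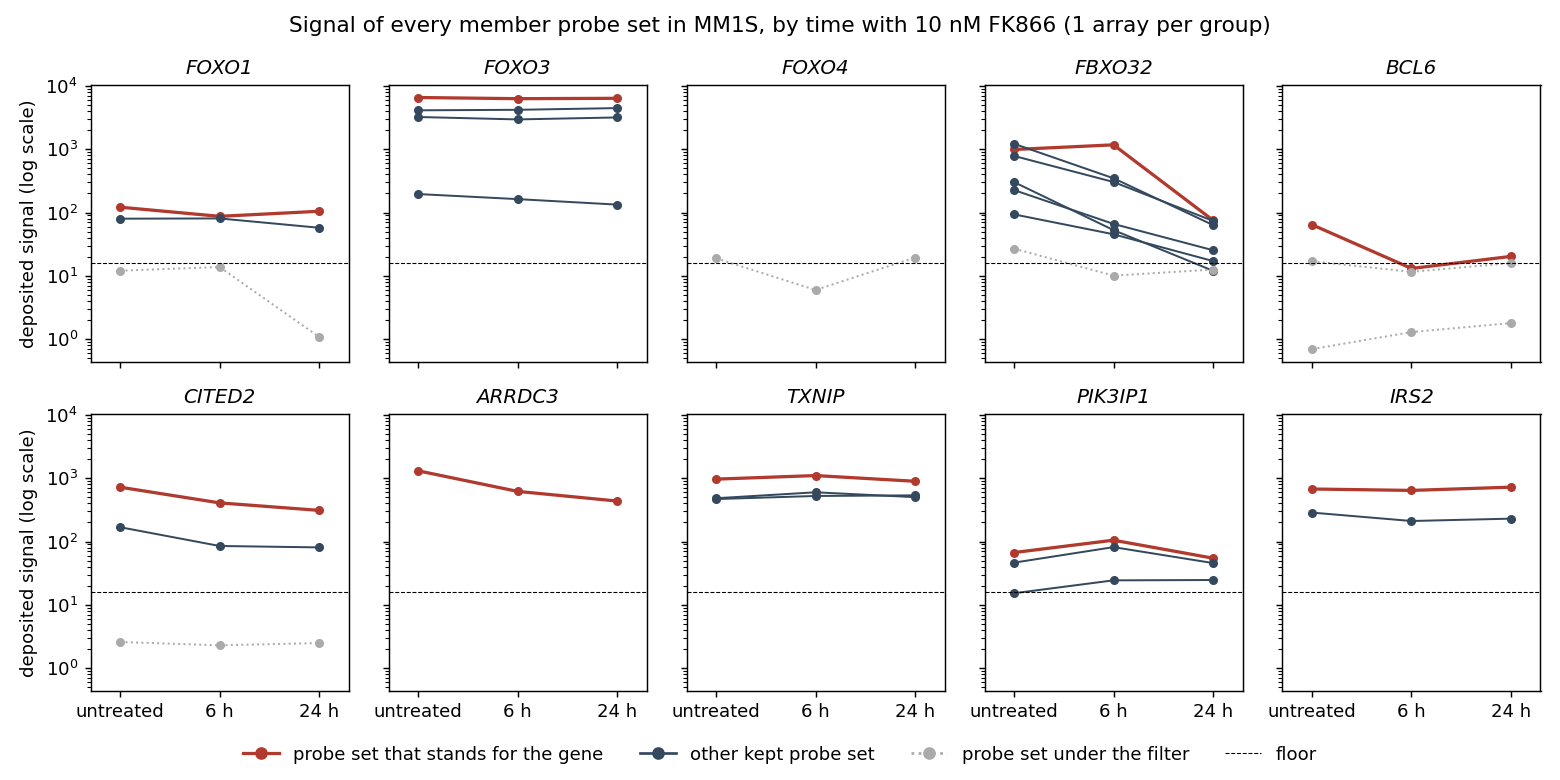
Each panel shows 1 member gene, with the deposited signal on a log axis against time with FK866, 1 line per probe set and 1 array per time. All 6 kept FBXO32 probe sets are lowest at 24 h. The TXNIP lines and the upper FOXO3 lines stay nearly level, and the lowest FOXO3 line falls.

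Of the FOXO factors, FOXO3 was close to its untreated level, FOXO1 differed between its probe sets and FOXO4 was too dim to read. FOXO3, the FOXO factor known for stress and longevity functions in many tissues, had signals of 6535, 6263 and 6346 in its highest probe set in the order untreated, 6 h, 24 h. Its next probe sets gave 4105, 4180 and 4446, and 3220, 2948 and 3166, so these 3 varied by less than 1.1-fold between arrays. The dimmest, 231548_at, had 195.7, 162.9 and 133.5, and differed by -0.55 at 24 h. The gene value differed by -0.06 at 6 h and -0.04 at 24 h, above the median of all genes each time. The differences of the 3 highest probe sets were at most 0.13 in size, below the pooled SD of 0.18 at 6 h and 0.20 at 24 h for genes with mean signals of 1024 or more, and those of 231548_at, -0.26 and -0.55, were above it. Another 3 probe sets carry FOXO3 together with FOXO3B and were not used.

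FOXO1, the family member that controls gluconeogenesis in liver and several steps of B cell development, was dim. Its highest probe set had 121.4, 87.1 and 104.7, and the other kept probe set 80.0, 80.7 and 57.6. At 6 h these differed by -0.48 and 0.01, and at 24 h by -0.21 and -0.47, so they put the lowest level at different times. The larger difference at each time was above the pooled SD of 0.42 for genes with mean signals of 32 to 256. The last of its probe sets, 228484_s_at, stayed under 16 on all arrays. FOXO4, a smaller family member regulated by AKT in the same way, had 1 probe set, with 18.9, 6.0 and 19.4, which did not pass the filter. No direction can be given for it, since at 6 h it lay under the floor and the other values lay next to it.

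Of the members that act on insulin and PI3K signalling, IRS2 stayed near its untreated level. PIK3IP1 was higher at 6 h in its brighter pair of probe sets. IRS2, an adaptor that passes insulin and IGF signals to PI3K, had 674.3, 640.7 and 720.9 in its highest probe set and 285.9, 210.8 and 229.7 in the other. Its differences of -0.07 and -0.44 at 6 h and 0.10 and -0.32 at 24 h did not reach 2-fold, and at 24 h they differed in sign. PIK3IP1, a transmembrane inhibitor of PI3K, had 67.1, 105.0 and 54.7 in its highest probe set, with 46.5, 81.6 and 45.8 in the next. At 6 h this pair differed by 0.65 and 0.81, both upward, though neither reached 2-fold. Both were larger than the pooled SD of 0.42 in the gene's signal range of 32 to 256. At 24 h the highest pair differed by -0.29 and -0.02, and 24 h against 6 h by -0.94 and -0.83. The dimmest, 1555632_at, had 15.3, 24.4 and 24.7. It passed the filter only through the treated arrays, so it had to be higher. Its difference of 0.61 at 6 h is a lower bound, and it stayed at the 6 h level at 24 h.

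FBXO32 had the lowest 24 h difference of the members. It encodes a substrate-binding subunit of an SCF ubiquitin ligase, known as a FOXO-driven gene of muscle wasting. Probe set 225803_at had a signal of 1213 without FK866, 347.5 at 6 h and 63.8 at 24 h. Probe set 225328_at gave 779.7, 303.3 and 74.1, and 241762_at gave 301.1, 52.8 and 12.1. The dimmer 225345_s_at had 225.7, 66.1 and 25.5, and 225801_at had 93.4, 45.4 and 17.2. In these 5 probe sets the untreated array was highest, the 6 h array intermediate and the 24 h array lowest. Against untreated cells they were 2.06-fold to 5.70-fold lower at 6 h and 5.43-fold to 19.0-fold lower at 24 h. For 241762_at, at least 18.8-fold lower at 24 h, the fold is a lower bound because its 24 h signal lay under the floor. Probe set 232729_at did not pass the filter, with 26.9, 10.1 and 12.6.

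The probe set that stands for FBXO32 under the rule, 241763_s_at, had another course. Its signal was 988.4 without FK866, 1170 at 6 h and 76.1 at 24 h. It differed by 0.24 at 6 h, where the other 5 differed by -2.51 to -1.04, and by -3.70 at 24 h, inside the range of the others. The 6 h call for FBXO32 therefore turned on the choice of probe set. The mean over its 6 kept probe sets differed by -1.37 and their median by -1.57 at 6 h, past 2-fold, whereas the gene value was 1.18-fold higher. The range of 2.76 among its probe sets at 6 h was the widest of 493 genes with at least 5 kept probe sets, whose median range was 0.80. At 24 h its range was 1.81, which ranked 28 among the same genes. Between the treated arrays, 241763_s_at was 15.4-fold lower at 24 h than at 6 h, and the other 5 were 2.59-fold to 5.45-fold lower. The part of cross-hybridisation or of transcript isoforms in this disagreement was not tested.

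**Figure D2:**
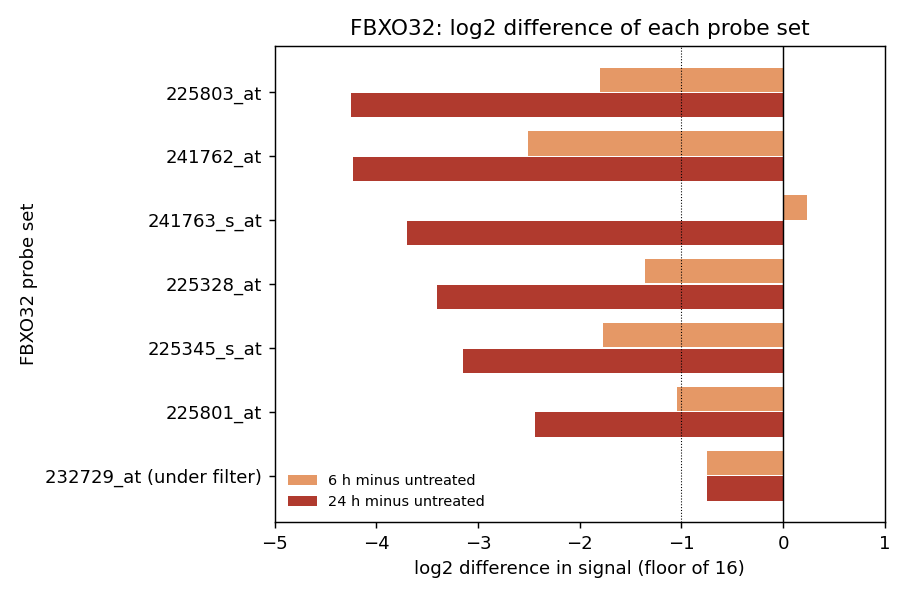
Bars give the log2 difference from untreated cells for each FBXO32 probe set at 6 h (light) and 24 h (dark), 1 array per time, with the dotted line at 2-fold lower. All 6 kept probe sets lie between -4.25 and -2.44 at 24 h, and 241763_s_at alone is above 0 at 6 h.

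FBXO32 was chosen as a member with its 24 h difference known, so its ranks there are a description only. Its value of -3.70 ranked 4 from the lowest among 11883 genes. The median of its probe sets, -3.55, ranked 2 from the lowest among the 493 genes with at least 5 kept probe sets. Over all members, 10 of the 24 kept probe sets were at least 2-fold lower at 24 h and 0 higher, against 5.26% and 1.11% of all kept probe sets with 1 symbol. At 6 h it was 7 lower and 0 higher, against 4.32% and 1.36%. At 24 h against 6 h, 6 were lower and 0 higher, against 1.96% and 1.14%. FBXO32 made up 6, 5 and 6 of these lower probe sets. Nothing is read from these counts or shares, since the members were chosen with such values known.

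BCL6, a transcriptional repressor of germinal centre B cells that is normally silent in plasma cells, was near the limit of detection. Its probe set 203140_at had 64 without FK866, 13.1 at 6 h and 20.3 at 24 h. The untreated array was the only one clearly above the floor, and the probe set passed the filter through it, so it had to differ. It was lower by at least 4-fold (6 h) and by 3.15-fold (24 h). The other probe sets, with 17.0, 11.6 and 15.9 and with 0.7, 1.3 and 1.8, did not pass. With a floor of 64 its difference was 0 at both times, and with log2(signal + 32) it was -0.88 at 24 h, short of 2-fold.

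ARRDC3, an arrestin-domain protein that brings membrane receptors to ubiquitin ligases, was lower in steps. Its only probe set had 1305 without FK866, 618.7 at 6 h and 435.9 at 24 h. Relative to untreated cells the level was 2.11-fold lower at 6 h, then 2.99-fold lower at 24 h, which lay 1.42-fold below 6 h. The differences from untreated cells, -1.08 and -1.58, were larger than the pooled SD of 0.28 and 0.29 between probe sets of genes with mean signals of 256 to 1024, but ARRDC3 has no other probe set to set beside them. At 6 h its log2 difference was -0.95 after quantile normalization and -0.97 once the median gene difference was subtracted, both short of 2-fold.

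CITED2, a transcriptional cofactor that competes with HIF1A for the acetyltransferases EP300 and CREBBP, was lower in both kept probe sets. Probe set 209357_at had 719.2, 407.3 and 310.5, and 207980_s_at had 168.1, 85.1 and 80.8. The pair were 1.77-fold and 1.98-fold lower at 6 h, just short of the 2-fold size, and 2.32-fold and 2.08-fold lower at 24 h. They differed from each other by 0.16 at 6 h and 0.15 at 24 h. The remaining probe set, 227287_at, stayed between 2.3 and 2.6, under the floor.

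TXNIP, the thioredoxin-binding arrestin that restrains glucose uptake, was close to its untreated level. Its highest probe set had 965.7, 1099 and 893.7, the next 482.3, 598.4 and 501.7, and the last 468.2, 523.5 and 535.4. At 6 h all 3 were slightly higher, by 0.16 to 0.31, and at 24 h they differed by -0.11 to 0.19. The pooled SD in their signal range was 0.28 at 6 h and 0.29 at 24 h, and only 201009_s_at at 6 h, with 0.31, was above it. ARRDC3 and TXNIP are related arrestin-domain genes, and each has GTAAACA in a window shown above, and their 24 h differences were -1.58 and -0.11.

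**Figure D3:**
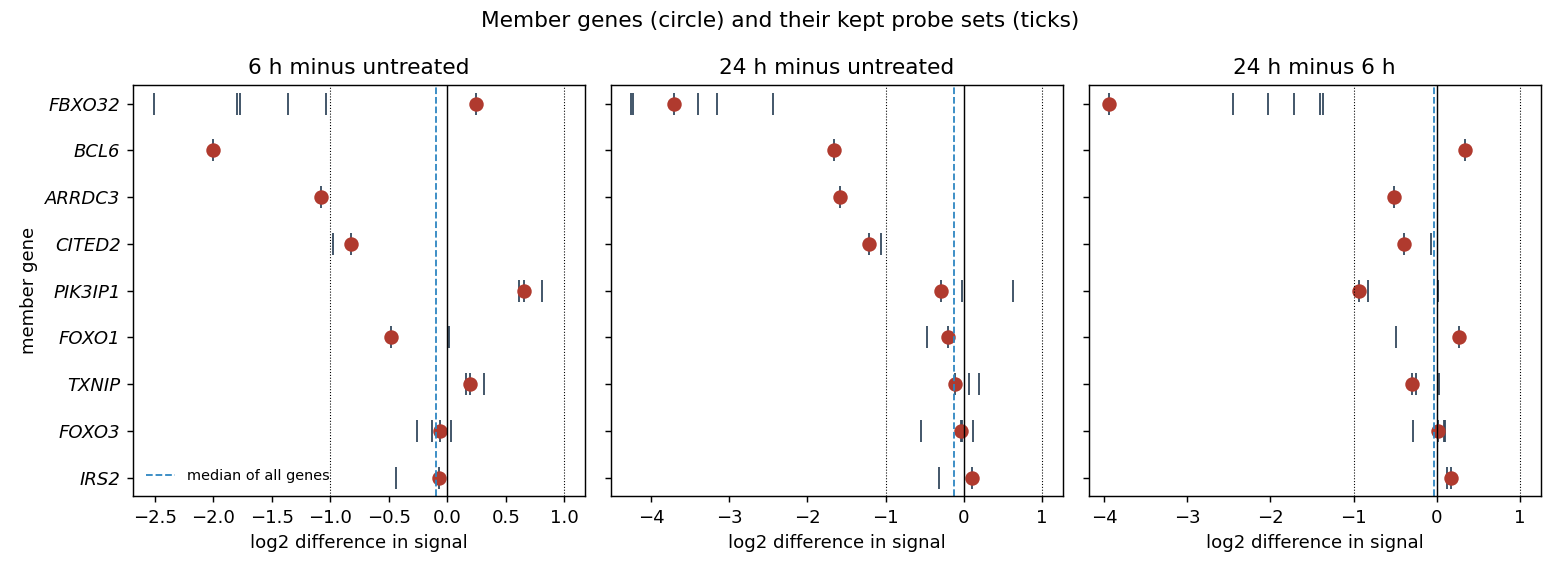
Circles give the log2 difference of each measured member gene and ticks those of its kept probe sets, in 3 comparisons of single arrays, with dotted lines at 2-fold and a dashed line at the median of all genes. FBXO32, BCL6, ARRDC3 and CITED2 lie past 2-fold lower at 24 h, and the FBXO32 circle is apart from its ticks at 6 h.

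Between the treated arrays, FBXO32 was the only measured member at least 2-fold apart, 1 of 9 lower and 0 higher at 24 h than at 6 h, against 1.84% and 1.09% of all genes. PIK3IP1 came next at 1.92-fold lower. BCL6 was 1.27-fold higher at 24 h than the floor it took at 6 h, a lower bound. The 24 h and 6 h comparisons share the untreated array, so their likeness in ARRDC3, CITED2 and BCL6 is not independent.

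Other genes known as FOXO targets were counted from 4 lists, drawn up with earlier results of these arrays known. Of 52 genes, 37 were measured, and at 24 h 5 of them were lower by 2-fold or more and 0 higher, where 4.17% of all genes were lower and 1.14% higher. Their median was -0.37, against -0.13 for all genes. At 6 h, 2 were at least 2-fold lower and 0 higher, beside 3.32% and 1.44% of all genes, with a median of -0.21 against -0.10. After quantile normalization the count stayed at 5 at 24 h and was 1 at 6 h, with medians of -0.17 and -0.06. IL7R, 1 of the 5, passed the filter only through the untreated array, so it had to be lower. The 24 h count was 3 of 28 with a filter at percentile 75 and 3 of 27 without _s_at and _x_at probe sets. Among genes with mean log2 signals of at least 8 it was 2 of 24.

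Of the 9 measured targets in proteolysis and autophagy, all were below their untreated level at 24 h, as were 65.2% of all genes, and 8 were below the median of all genes. GABARAPL1, an autophagosome protein, had 140.2, 84.0 and 41.0 in the order untreated, 6 h, 24 h. It was 3.42-fold lower at 24 h, with its 2 probe sets at -1.77 and -1.42, while at 6 h they differed by -0.74 and 0.13. It was the only gene of the list at least 2-fold lower at 24 h, where 4.17% of all genes were. That count was 0 with a filter at percentile 75, without _s_at and _x_at probe sets, and at mean log2 signals of at least 8. ULK1, the kinase that starts autophagy, differed by -0.72 and GLUL, glutamine synthetase, by -0.45, while MAP1LC3B, ATG12 and USP14 differed by -0.13, -0.27 and -0.30. The list's median was 0.00 at 6 h and -0.37 at 24 h, and the 24 h median was -0.16 after quantile normalization.

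Of the 12 measured targets in the cell cycle and cell death, CCNG2 alone was at least 2-fold lower at 24 h, where 4.17% of all genes were. CCNG2, an unconventional cyclin linked to cell cycle arrest, had 759.3, 644.4 and 272.3 and was 2.79-fold lower at 24 h, although its 4 probe sets ranged from -1.48 to 0.12. BCL2L11, the pro-apoptotic BIM, differed by -0.82 at 6 h and -0.86 at 24 h. Its 7 probe sets spanned -1.60 to -0.58 at 6 h and -1.68 to -0.86 at 24 h. GADD45A, a stress response gene, was lower by 2.02-fold (6 h) and 1.75-fold (24 h). The list's 6 h count of 1 lower gene was 0 after quantile normalization, with the median gene difference subtracted and with log2(signal + 32). It was 2 by the mean or median over probe sets, and 2 of 9 without _s_at and _x_at probe sets. GADD45B differed by 0.45, CCND1 by 0.11 and the CDK inhibitor CDKN1A by -0.01 at 24 h. CCND1 had 93.2, 50.8 and 100.7. Its 2 kept probe sets differed by -0.88 and -1.07 at 6 h, and by 0.11 and -0.35 at 24 h. The list's medians were -0.32 at 6 h and -0.37 at 24 h.

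Among 12 measured targets in metabolism and stress, DEPP1 was the only gene at least 2-fold apart at 24 h. By that size 4.17% of all genes were lower and 1.14% higher. DEPP1 was not among the 9 genes left without _s_at and _x_at probe sets, nor among the 6 with mean log2 signals of at least 8. The 24 h count of lower genes was 0 in both settings. DEPP1, a FOXO-induced regulator of autophagy, had 250.9, 182.0 and 89.1 and was 2.82-fold lower at 24 h, with its 2 probe sets at -1.49 and -1.26. SESN2 and TRIB1 differed by -0.74 and -0.60 at 24 h. SESN1, a stress-inducible inhibitor of mTORC1, was 1.52-fold higher, KLF15 differed by 0.35 and the hydrogen peroxide-degrading enzyme CAT by 0.26. The median was -0.13 at 24 h, equal to that of all genes.

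Of 11 lymphocyte targets only 4 were measured. CXCR4, the chemokine receptor that holds plasma cells in bone marrow, had 3031, 2413 and 1013 and was 2.99-fold lower at 24 h, where its 3 probe sets spanned -1.58 to -1.45. IL7R, the interleukin receptor of lymphocyte survival, had 52.8, 20.8 and 6.8 and was at least 3.30-fold lower at 24 h, its 24 h signal lying under the floor. It too passed the filter only through the untreated array, and without it the list's 24 h median of -1.04 was -0.49 over 3 genes. With a floor of 64 that median was 0 and 1 gene, in place of 2, was at least 2-fold lower. KLF2, a quiescence factor, differed by -0.49 with its other probe set at 0.15, and KLF6 by -0.03.

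The upstream pathway was described in the same way. Of 24 measured PI3K and AKT pathway genes, 1 was at least 2-fold higher and 0 lower at 24 h, and 1 each way at 6 h, with medians of 0.00 at 6 h and -0.11 at 24 h. Among all genes 4.17% were lower and 1.14% higher at 24 h, and 3.32% and 1.44% at 6 h. PIK3R3, a regulatory subunit of PI3K, had 324.8, 119.1 and 169.4 and was lower by 2.73-fold (6 h) and 1.92-fold (24 h). Its 2 kept probe sets differed by -0.94 and -1.40 at 24 h. By the mean or median over probe sets, 1 gene of the list was at least 2-fold lower at 24 h. PIK3CG, a catalytic subunit, differed by -0.71 at 24 h, where its 3 probe sets spanned -1.39 to -0.71, and the kinase GSK3A by -0.53. PIK3CD, the catalytic subunit typical of leukocytes, had 16.1, 48.8 and 35.4, higher by 3.03-fold (6 h) and 2.20-fold (24 h) over an untreated signal close to 16. It passed the filter only through the treated arrays, and 0 genes of the list were 2-fold higher at either time with a floor of 64 or with log2(signal + 32). TSC2, an inhibitor of mTORC1 signalling, differed by 0.58 and the lipid phosphatase INPP5D by 0.50 at 24 h. The sign of the list's 24 h median turned with the scaling, to 0.09 after quantile normalization and 0.02 once the median gene difference was subtracted.

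Proteins that modify or bind FOXO factors were measured for 26 of 28 genes, and 0 were 2-fold apart at 6 h or 24 h. At that size 4.17% of all genes were lower and 1.14% higher at 24 h, and 3.32% and 1.44% at 6 h. The list's medians were -0.12 and -0.24. EP300, an acetyltransferase that acts on FOXO proteins, had 542.1, 379.5 and 333.6 and differed by -0.70 at 24 h, with its 2 probe sets at -0.70 and -0.69. CTNNB1, which binds FOXO as a cofactor, differed by -0.61. PRKAA2, an AMPK subunit, had 28.3, 23.3 and 8.3 and differed by -0.82. That size is a lower bound, since the 24 h signal lay under the floor. PRKAA2 would not have passed the filter without its untreated array, so it had to be lower. STK3, a kinase of the Hippo pathway, differed by 0.54, PRKAA1 by 0.11 and SFN by 0.05. The 4 kept PRKAA1 probe sets ranged from -1.43 to 0.37 at 6 h and from -1.01 to 0.11 at 24 h. The 3 of SFN ranged from -1.02 to -0.06 and from -0.76 to 0.23. Single probe sets of both thus passed 2-fold where the gene value did not.

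The partners of single members were too few for such counts to be read against the shares of all genes. Those shares were 4.17% lower and 1.14% higher at 24 h, and 3.32% and 1.44% at 6 h. In the TXNIP axis and arrestin family, 0 of 13 measured genes were 2-fold apart at 6 h or 24 h, with medians of 0.03 and -0.07. There ARRDC1 differed by -0.67, ARRDC4 by -0.55 and MLXIP, which encodes MondoA, by -0.35 at 24 h, and its partner MLX by 0.43. The 5 kept MLX probe sets disagreed, ranging from -1.95 to 0.25 at 6 h and from -0.39 to 0.73 at 24 h. NEDD4L and WWP1, ubiquitin ligases of the family that binds arrestin-domain proteins, differed by 0.21 and 0.14. In the SCF core, where FBXO32 works with SKP1, CUL1 and RBX1, 0 of 7 were 2-fold apart, with medians of -0.10 and -0.13. There FBXW7 differed by -0.60, RBX1 by -0.35, NEDD8 by -0.22, FBXO25 by 0.13, CUL1 by 0.09 and SKP2 by 0.00 at 24 h. The 2 kept CUL1 probe sets differed by -1.01 and -0.11 at 6 h and by -0.57 and 0.09 at 24 h.

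The partners of BCL6 and CITED2 had medians of -0.37 at 6 h and -0.48 at 24 h over 10 measured genes. Among all genes, 3.32% were at least 2-fold lower at 6 h and 4.17% at 24 h, and 10 genes are too few to set against these shares. BACH2, a repressor that acts beside BCL6 in B cells, had 269.1, 102.7 and 134.5 and was lower by 2.62-fold (6 h) and 2.00-fold (24 h), the only gene of its list past that size each time. The 24 h call ended after quantile normalization and with the median gene difference subtracted, where 0 genes were lower and 1 was higher. It also ended with log2(signal + 32). BACH2 was not among the 7 genes left without _s_at and _x_at probe sets, so that setting could not test its call at either time. Its 2 kept probe sets differed by -1.39 and -1.32 at 6 h. At 24 h the probe set that does not stand for BACH2 differed by -1.71. HDAC7 differed by -0.59 at 24 h. IRF4, a plasma cell transcription factor that represses BCL6, was 1.90-fold higher at 24 h, with signals of 1698, 2030 and 3226. HIF1A, whose activity CITED2 restrains, differed by 0.04 and TFAP2A by 0.13.

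**Figure D4:**
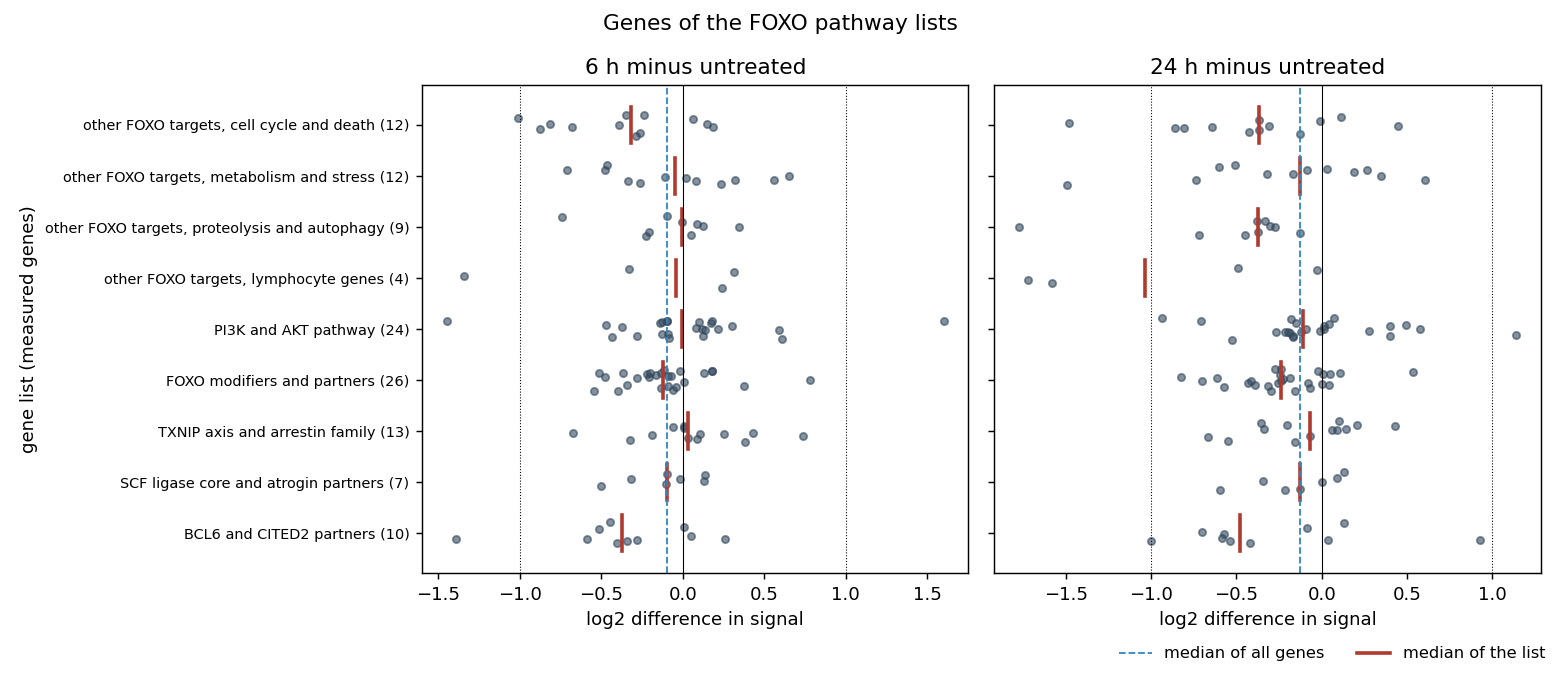
Points give the log2 difference of each measured gene of 9 FOXO pathway lists at 6 h (left) and 24 h (right) against untreated cells, 1 array per time, with a bar at the list's median, a dashed line at the median of all genes and dotted lines at 2-fold. The lymphocyte targets have a 24 h median of -1.04 over 4 genes, which is -0.49 without IL7R, and every point of the FOXO modifiers stays within 2-fold.

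Genes with the course most like that of FBXO32 were sought by the Euclidean distance over the 2 log2 differences from untreated cells, at 6 h and 24 h. The search covered 3030 genes of mean log2 signal 8 or more whose kept probe sets were all lower at 24 h. By its gene value the nearest were TESC, a calcium-binding protein (distance 0.13), SAT1, which acetylates polyamines (0.80), the nucleotide receptor P2RY6 (1.66), PDLIM3 (1.70) and fibronectin, FN1 (1.79). TESC had 2266, 2549 and 188.3. FN1, also in the stroma list, had 798.2, 675.3 and 203.1, with 6 kept probe sets. By the median over probe sets, an alternative added after seeing the data, the nearest among 2405 genes were STAT4 (0.36), CREM (0.88), CXCL10 (0.97), P2RY6 (0.98) and SAT1 (1.53). P2RY6 and SAT1 stood in both sets of 5. For ARRDC3 the nearest were ZSWIM6 (0.12), HEXIM1 (0.15) and the G protein regulator RGS2 (0.19), with RGS2 at 3854, 1846 and 1469. These distances rest on 3 arrays.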

How the data were processed

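Total RNA (1 µg) was turned into biotinylated cRNA, per the labels' protocols. The authors deposited 1 intensity per probe set and array on a linear scale, while probe summary, background correction and scaling are steps not given in the sources used here. The table holds 54675 probe sets, 62 of them controls. The platform annotation of 2016 named 1 symbol for 41091 probe sets, several symbols for 1801 others and none for the remaining 11721, and 41037 of the first matched a RefSeq gene, with 0 symbols updated. Signals below 16 were set to 16, log2 was taken, and probe sets with a mean log2 value at or above the median were kept, 22601 of them with 1 symbol. No test was run on 1 array per group, the number of arrays limits the precision, and differences are described at 2-fold. The procedure was tested on simulated data.

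The members and lists were chosen with earlier results of these data known. Named genes are all members and, outside the marker lists, the 3 highest and 3 lowest of each list at 24 h. The 5 genes nearest in course to FBXO32 and the 3 nearest to ARRDC3 are also named. ARRDC3 is the other member with the largest 24 h difference among those of mean log2 signal 8 or more. Genes of a list past 2-fold at 6 h were named after their values were seen. Alternatives covered scaling, floor, filter, probe set summary, probe sets named _s_at or _x_at, which may cross-hybridise, and size. The median over probe sets and the limit to mean log2 signals of at least 8, and the lymphocyte median without IL7R, were added after seeing the data. Promoter windows come from RefSeq, GRCh38.p14. Python 3.11.15 with numpy 2.4.6, pandas 2.3.3 and matplotlib 3.10.9 was used.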

Additional observations from a re-analysis of the deposited data

How the results depend on the processing

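With 1 array per group leaving out a replicate was not possible, and signal over background limits BCL6, FOXO4, FOXO1 and PIK3IP1 most. No paired analysis was possible because each group holds 1 array and the comparisons come from no test. Of 75 log2 differences of single members recomputed in each comparison, 0 reversed a called direction. Only those of called members could count as reversed, 35 at 24 h and 17 at 6 h against untreated cells and 9 between the treated arrays. FBXO32, not called at 6 h, went from 0.24 there to -1.37 by the mean over probe sets and to -1.80 without _s_at and _x_at probe sets. FBXO32, ARRDC3 and CITED2 kept their 24 h call under each alternative that changes scaling, floor, filter or summary.

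Member genes at least 2-fold lower at 6 h, 2 as reported (BCL6 and ARRDC3), numbered 1 after quantile normalization, with the median gene difference subtracted, with a floor of 64 and with a filter at percentile 75. It was 3, with FBXO32 added, by the mean or median over probe sets and without _s_at and _x_at probe sets. With a size of 1.5-fold, 1 member gene was higher at 6 h and 2 were lower at 24 h than at 6 h. Member probe sets lower at 24 h than at 6 h, 6 as reported, numbered 3 with a floor of 64, with log2(signal + 32) and with the stricter filter. That filter left 5 lower at 24 h and 3 at 6 h against untreated cells, where 10 and 7 were reported. Member probe sets higher at 6 h, 0 as reported, numbered 1 after quantile normalization and 3 at 1.5-fold, and 1 was higher at 24 h at 1.5-fold.

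Counts of all genes moved more. At 24 h, 495 lower and 135 higher became 264 and 288 after quantile normalization. The higher count was 215 with the median gene difference subtracted. They became 161 and 36 with a floor of 64, which also lets all 19775 genes through the filter, 158 and 25 with log2(signal + 32), and 130 and 32 with the stricter filter. They were 1682 and 598 at 1.5-fold and 86 and 15 among genes with mean log2 signals from 8 up. At 6 h, 395 lower and 171 higher became 208 and 279, 115 and 49, 91 and 43, 93 and 43, 1350 and 679, and 61 and 23 in the order quantile normalization, floor of 64, log2(signal + 32), stricter filter, 1.5-fold and mean log2 of at least 8. Between the treated arrays, 219 lower and 130 higher became 49 and 20 with a floor of 64, 48 and 20 with log2(signal + 32), 46 and 16 with the stricter filter, 941 and 635 at 1.5-fold, and 27 and 9 at a mean log2 of at least 8.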
